A study of Homo sapiens with 4 samples.

Results

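Binding of MEIS1 and MEIS2 was described at 10 cadherin genes in human neural stem cells (hNSC): CDH2, CDH4, CDH6, CDH7, CDH8, CDH9, CDH10, CDH11, CDH12 and CDH13. They were taken by name from the 20098 protein-coding genes on chromosomes 1 to 22 and X (GENCODE 44 on GRCh37). A MEIS site was counted at a gene when its summit, the base with the highest signal, lay in the gene body extended by 250 kb on each side. On this rule 28 of the 5169 reproducible MEIS sites belonged to the cadherin genes, and no site was counted at more than 1 of them. The replicate lists held 129 of 36796 peaks at these genes in replicate 1 and 182 of 47449 in replicate 2.

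The cells were untreated, commercially supplied hNSC with no edited gene. Chromatin immunoprecipitation with sequencing (ChIP-seq) was done in 2 MEIS ChIP samples with anti-MEISa and anti-MEIS1 antibodies mixed, and 2 Input samples served as background in peak calling. A site therefore does not tell which MEIS protein was bound. By the study's methods the hNSC were handled in 2 batches, which were not tied to the replicates by name, and the beads were washed by either of 2 protocols, with or without LiCl, which were not tied to a sample either. Differences between the replicates may therefore be technical. The peak lists hold no expression values from which the cell identity or the activity of a cadherin gene could be checked. The depth of the libraries is unknown, because peak lists carry no read counts. Strength is given as the −log10 p of the peak caller and as fold enrichment over input, and paired values are in the order replicate 1, replicate 2.

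Cadherins are calcium-dependent adhesion molecules that bind cadherins of the neighbouring cell. In classical cadherins the cytoplasmic tail is linked to the actin skeleton through beta-catenin and alpha-catenin, and p120-catenin also binds the tail. In the neural tube they hold the neuroepithelium together at its apical junctions, and combinations of them mark brain divisions and nuclei. CDH2 (N-cadherin) is the main cadherin of neuroepithelial cells and CDH4 (R-cadherin) is its closest relative, and both are type I. CDH6 through CDH12 are type II cadherins, many with regional expression in the brain. CDH13 (T-cadherin) has a lipid anchor in place of the transmembrane segment and tail, so it is not a classical cadherin in the strict sense.

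MEIS proteins are homeodomain factors of the TALE class, whose core recognition sequence is TGACAG. The sequences at the summits show how close the core lay to the position of the strongest signal. In 6 of the 28 cadherin sites the centre of a TGACAG lay within 10 bp of the summit, beside 24.9% of all sites, and in the site of CDH12 it lay 23 bp away. These sequences are from the GRCh37 plus strand, with TGACAG, or CTGTCA where it was read on the other strand, in capitals.
CDH2 site 6, chr18:25298044-25298104: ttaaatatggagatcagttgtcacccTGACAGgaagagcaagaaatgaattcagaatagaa
CDH4 site 2, chr20:60015667-60015727: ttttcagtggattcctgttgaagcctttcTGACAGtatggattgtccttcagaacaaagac
CDH6 site 1, chr5:31162063-31162123: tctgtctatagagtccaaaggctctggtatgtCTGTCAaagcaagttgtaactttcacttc
CDH7 site 2, chr18:63777402-63777462: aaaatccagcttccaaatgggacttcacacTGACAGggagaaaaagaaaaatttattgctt
CDH9 site 1, chr5:27088047-27088107: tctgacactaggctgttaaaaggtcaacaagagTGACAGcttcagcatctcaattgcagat
CDH11 site 1, chr16:64785866-64785926: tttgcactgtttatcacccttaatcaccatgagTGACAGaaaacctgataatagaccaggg
CDH12 site 1, chr5:22541283-22541350: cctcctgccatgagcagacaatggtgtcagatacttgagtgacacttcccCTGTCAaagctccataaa

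The next sequences are those of the strongest cadherin site, at CDH8, and of the sites nearest to the start of a cadherin gene, at CDH2 and CDH10. They reach from around the summit to the TGACAG nearest to it, and at CDH8 to both copies in the window, with the same capitals.
CDH8 site 1, chr16:61446926-61447158: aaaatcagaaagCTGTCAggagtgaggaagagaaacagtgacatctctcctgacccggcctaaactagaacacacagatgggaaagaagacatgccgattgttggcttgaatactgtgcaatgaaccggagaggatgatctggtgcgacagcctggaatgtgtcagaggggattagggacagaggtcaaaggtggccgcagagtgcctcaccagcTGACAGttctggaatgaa
CDH2 site 1, chr18:25755068-25755194: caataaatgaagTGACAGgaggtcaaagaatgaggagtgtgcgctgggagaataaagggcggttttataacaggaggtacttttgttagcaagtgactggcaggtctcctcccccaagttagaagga
CDH10 site 1, chr5:24647132-24647302: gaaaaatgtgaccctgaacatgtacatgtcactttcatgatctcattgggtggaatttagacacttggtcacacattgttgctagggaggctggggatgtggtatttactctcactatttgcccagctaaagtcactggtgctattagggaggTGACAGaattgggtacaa

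In 12 of the 28 sites no TGACAG was found in the 500 bp window. Of these, 9 held the shorter TGACA, or TGTCA on the other strand, within 50 bp of the summit. The sequences of 6 of the 9 are given, with this string in capitals. Site 3 of CDH2, site 3 of CDH6 and site 3 of CDH7 did not hold it there.
CDH2 site 2, chr18:25616505-25616655: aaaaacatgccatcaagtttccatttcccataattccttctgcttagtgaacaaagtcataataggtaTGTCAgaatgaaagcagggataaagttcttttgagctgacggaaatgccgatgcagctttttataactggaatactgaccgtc
CDH2 site 4, chr18:25403103-25403163: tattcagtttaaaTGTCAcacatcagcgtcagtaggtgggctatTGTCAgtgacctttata
CDH2 site 5, chr18:25522837-25522897: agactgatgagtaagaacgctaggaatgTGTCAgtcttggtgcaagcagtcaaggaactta
CDH7 site 4, chr18:63568661-63568721: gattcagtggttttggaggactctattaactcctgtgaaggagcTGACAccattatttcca
CDH8 site 4, chr16:61453850-61453910: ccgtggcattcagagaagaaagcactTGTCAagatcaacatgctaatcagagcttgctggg
CDH13 site 2, chr16:83921240-83921300: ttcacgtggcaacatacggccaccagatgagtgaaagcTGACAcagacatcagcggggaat

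All 10 cadherin genes had at least 1 reproducible site, where 47.7% of all protein-coding genes did. Body length matters for such a count, because a longer window holds more sites. Among the 1422 genes that were of like body length to at least 1 cadherin, 66.3% had a site. CDH2 had the most, with 8. CDH7 and CDH8 had 4 each and CDH6 had 3. CDH4, CDH9 and CDH13 had 2 each, and CDH10, CDH11 and CDH12 had 1 each. With gene bodies alone 6 of the genes had a site, and all of CDH6, CDH7, CDH10 and CDH11 had theirs outside the body.

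**Figure D1:**
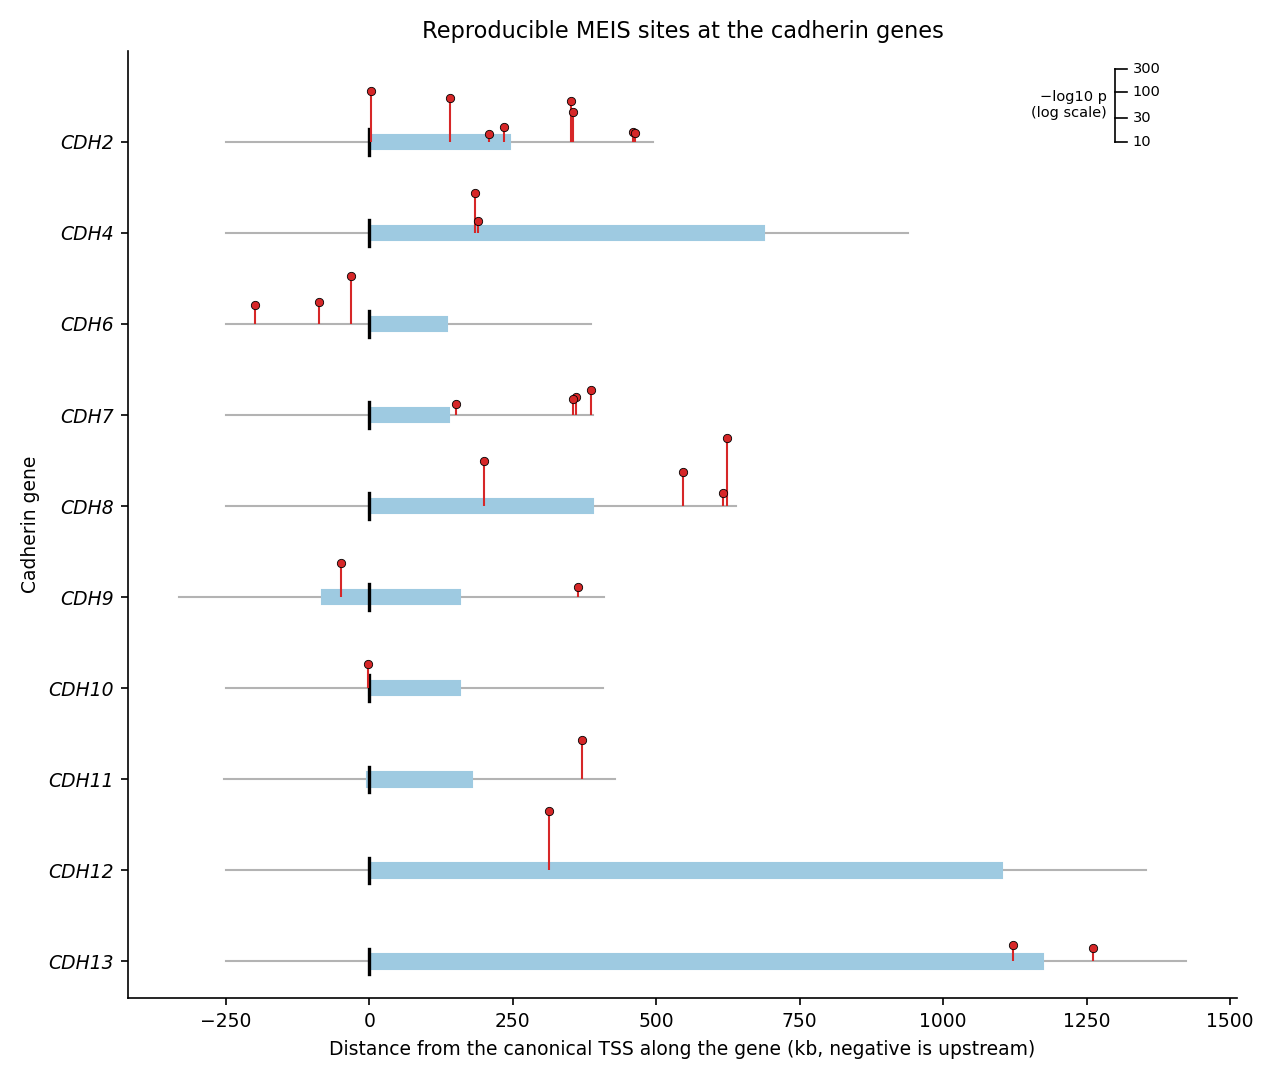
Map of the 28 reproducible MEIS sites, with 1 row per gene and the distance of each summit from the transcription start site (TSS) of the canonical transcript on the x axis (kb). Blue bars are gene bodies, grey lines the 250 kb added on each side, black ticks the TSS, and the height of each red stem is the site's −log10 p on a log scale. The 3 sites of CDH6 all lie upstream of the gene, and the 4 of CDH7 all lie downstream.

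The windows of the cadherin genes spanned 9.46 Mb and held 2.96 sites per Mb, where chromosomes 1 to 22 and X held 1.70 per Mb. The windows of the 1422 genes of like body length, summed over genes, held 2.03 per Mb. CDH2 alone held 10.7 sites per Mb. Without CDH2, a setting chosen after its count was seen, the remaining genes held 2.3 per Mb. The lowest densities were those of the longest genes, 0.624 per Mb at CDH12 and 1.195 at CDH13. Chromosome 18, which carries CDH2 and CDH7, held 1.97 sites per Mb, and chromosome 5, which carries CDH6, CDH9, CDH10 and CDH12, held 2.34. Chromosome 16, which carries CDH8, CDH11 and CDH13, held 1.39, and chromosome 20, which carries CDH4, held 1.35.

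Each count was then set beside those of 200 protein-coding genes, those closest to the cadherin in body length. For CDH2, these genes had a median of 1 site and at most 6, so 0 of 200 reached its 8. Over all protein-coding genes, 0.244% had 8 or more. The CDH2 count rested on both replicates: with as many of the strongest peaks of a single replicate as there are sites, it was 7 from replicate 1 and 5 from replicate 2, at percentiles of 99.5 and 97.8. It depended on the flanks and the list as well. With 100 kb added, and at an IDR of 0.001 or less, CDH2 had 4 sites, at a percentile of 98.25 in each. With its gene body alone it also had 4, at 99.5. The 4 sites of CDH7 were reached by 5.50% of its genes of like length, the 4 of CDH8 by 16%, and the 3 of CDH6 by 14.5%. The standing of CDH7 and CDH8 depended on the flanks: with 100 kb added both had 1 site, at percentiles of 74.5 and 57 in place of 96.3 and 86.8, and with gene bodies alone CDH7 had none. At an IDR of 0.001 or less CDH7 had 1 site, at a percentile of 76.3, and CDH8 had 3. Among all protein-coding genes, 3.67% had at least 4 and 8.71% at least 3. CDH6 went from 3 to 6 sites on the replicate 2 peaks alone and to 4 on those of replicate 1.

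The counts of the remaining genes were reached by 40% or more of their comparison genes. As many sites as at CDH9 were found at 40% of the genes of like length, and as many as at CDH10 at 60%. CDH10 had 2 sites in place of 1 on the replicate 1 peaks alone. For CDH4 the share was 61.5% and for CDH11 66.5%. For CDH13 it was 69.5% and for CDH12 83.5%. Few protein-coding genes are as long as CDH12 (1103 kb) and CDH13 (1174 kb), so their comparison genes reached down to 612 kb and 615 kb.

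**Figure D2:**
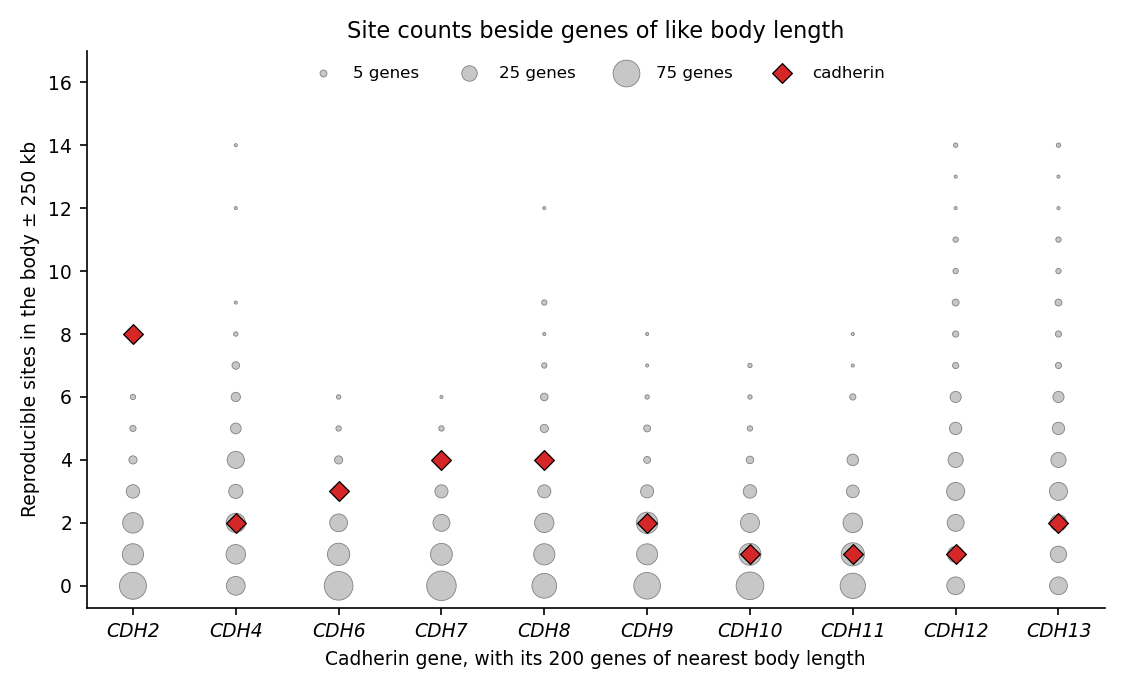
Number of reproducible sites in the gene body and 250 kb on each side (y axis) for each cadherin gene (red diamonds) and for its 200 protein-coding genes of nearest body length (grey circles, area in proportion to the number of genes). The diamond of CDH2, at 8, lies above all its grey circles, and that of CDH12, at 1, lies below the median of its circles, 3.

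The strength of the cadherin sites was like that of the list as a whole. Their −log10 p had a median of 28.9 and ran from 14.7 to 238, and the median over all sites was 29.3. Above that median lay 14 of the 28 sites. The strongest 10% of the list, which starts at a −log10 p of 133, held 2 cadherin sites, the strongest ones of CDH8 and CDH12. An IDR (irreproducible discovery rate) of 0.001 or less was reached by 15 of the 28, and by 60.4% of all sites. CDH13 was the only one of the 10 genes with no site at this stricter limit.

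CDH2, which builds the apical junctions of neural progenitors, carried 4 sites in its body and 4 beyond its end, none of them upstream. The strongest, site 1 (chr18:25754613-25755545), lay in intron 1 of the canonical transcript, 1.93 kb downstream of its TSS. Its −log10 p was nearly equal in the replicates, 107 and 108, while the fold enrichment was 12.7 and 24.6. The TGACAG of site 1, shown above, was centred 81 bp from the summit.

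Site 2 of CDH2 (chr18:25615592-25617561) lay in intron 2 of the canonical transcript, 141 kb from its TSS. Its summit stood 31 bp upstream of the annotated TSS, at position 25616549, of a shorter protein-coding transcript of CDH2. The −log10 p was 76.7 and 119.9, and the fold enrichment 9.98 and 21.3, so both measures were higher in replicate 2. The 151 bases printed above include this TSS, and hold TGTCA at the summit but no TGACAG.

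Site 8 (chr18:25547789-25548626) was the weakest of CDH2, with a −log10 p of 14.7 and 21.3 in the replicates. It lay in intron 14, 2.37 kb from another annotated TSS of the gene. Site 5 (chr18:25522454-25523280) lay within the gene body but beyond the end of the canonical transcript, with a −log10 p of 27.2 and 19.9. Which of the CDH2 transcripts these cells make was not measured.

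The other 4 CDH2 sites lay beyond the 3′ end of the gene in 2 close pairs. Sites 3 and 4 were 107 kb and 110 kb past the end and 2.36 kb from each other. Site 3 (chr18:25405038-25406498) had a −log10 p of 66.1 and 129 in the replicates, and site 4 (chr18:25402679-25403745) had 55.2 and 39.5. By fold enrichment site 3 had 8.94 and 27.6 and site 4 had 9.47 and 9.5, so in replicate 1 the order of this pair depended on the measure. Sites 6 and 7, 215 kb and 219 kb past the end and 4.36 kb apart, were weak. Site 6 had a −log10 p of 28.5 and 15.9 in the replicates, and site 7 had 14.8 and 17.8. For all 8 sites CDH2 was the protein-coding gene with the nearest canonical TSS.

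CDH4, the other type I gene, had a single pair of sites 3.96 kb apart in intron 2, and none elsewhere in its 688 kb body. Site 1 (chr20:60011100-60013132) lay 184 kb downstream of the canonical TSS. Its −log10 p was 99.3 and 65.6, the higher value being that of replicate 1, and its fold enrichment was nearly equal at 13.4 and 14.03. Site 2 (chr20:60015332-60016434) was weak but close in the replicates, 17.2 and 17.3, and its TGACAG was centred 2 bp from the summit. The TSS of a long non-coding RNA lay 0.683 kb from the summit of site 1.

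The type II genes differed in where their sites lay. At CDH6, expressed in kidney and in parts of the developing brain, all 3 sites were upstream. The strongest, site 1 (chr5:31161305-31162649), was 31.7 kb from the TSS, with a −log10 p of 122 and 93.1 in the replicates and TGACAG 5 bp from the summit. Site 2, at 87.3 kb (chr5:31104992-31107890), was the widest of all cadherin sites with 2899 bp. Its −log10 p was 27.4 and 80.9 and its fold enrichment 5.74 and 19.5, so that replicate 2 stood far above replicate 1. Site 3, at 199 kb, had values of 24.01 and 29.1, and its replicate summits lay 647 bp apart, the widest gap among the cadherin sites.

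CDH8, a type II cadherin of the developing brain, had the strongest cadherin site. Site 1 (chr16:61446385-61447929) lay 623 kb from the TSS and 234 kb beyond the end of the gene, and ranked 247 of the 5169 sites. Its −log10 p reached 238 and 438, and its fold enrichment 25.05 and 66.9. Its nearest annotated TSS of any kind, that of a long non-coding RNA, was 229 kb away. The window held 2 TGACAG, one on each side of the summit, as printed above. A weak site lay 6.81 kb from it, with a −log10 p of 18.7 and 48.4.

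Of the remaining CDH8 sites, site 2 (chr16:61869966-61871367) was inside intron 4 and had nearly equal values of −log10 p, 82.1 and 85.8. Site 3 (chr16:61523501-61524866) lay 157 kb beyond the gene, with 49.0 and 82.9. All 4 CDH8 sites had the higher value in replicate 2.

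The single site of CDH12, a brain cadherin with a body of more than a megabase, was the second strongest. It lay in intron 1 (chr5:22540783-22541860), 312 kb downstream of the canonical TSS. Its −log10 p was 163 and 192, and its fold enrichment was 19.2 and 38.4. Of the 10 genes, CDH12 thus had the lowest site density and the second strongest site.

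CDH11 (OB-cadherin, of osteoblasts and mesenchyme) also had 1 site, 192 kb beyond its end (chr16:64785250-64786439). The −log10 p was 62.7 and 102 in the replicates, and the fold enrichment 9.05 and 23.2. This was the only cadherin site with the composite PBX-MEIS consensus, in which TGA and then T or G precede TGACAG. It lay 6 bp from the summit, measured at its TGACAG, and can be read in the printed sequence. PBX proteins are the usual partners of MEIS on DNA. The composite was found in 4.93% of all sites.

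At CDH10 the single site lay 2.08 kb upstream of the TSS (chr5:24646832-24647547), with a −log10 p of 30.3 and 42.7 and a fold enrichment of 6.13 and 11.96. CDH9 had its stronger site (chr5:27087559-27088558) 49.4 kb upstream of the canonical TSS but within the gene body, which a longer transcript extends. Its −log10 p was 49.7 and 116, and its fold enrichment 7.23 and 23.6. The other CDH9 site lay 206 kb beyond the gene, with values of 22.1 and 16.3.

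All 4 sites of CDH7 lay beyond the 3′ end and had modest values, with a −log10 p from 17.02 to 32.3. The strongest, site 1 (chr18:63802979-63804303), was 246 kb past the end, just within the 250 kb limit, with 33.6 and 32.3 in the replicates. Sites 2 and 3 lay 4.76 kb apart, and site 4 (chr18:63568263-63568972) was 11.1 kb past the end, with 17.02 and 37.4. With gene bodies extended by 500 kb, CDH7 had 7 sites, CDH6 had 8 and CDH10 had 4.

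CDH13 had the weakest strongest site among the 10 genes. Site 1 (chr16:83781112-83782803), in intron 11, had a −log10 p of 21.99 and 27.4, and site 2 (chr16:83920775-83921648), 87.0 kb beyond the gene, had 18.6 and 19.1. These were the only cadherin sites with another protein-coding gene nearest. HSBP1 had its canonical TSS 59.3 kb from site 1, and the summit of site 1 also lay in the annotated body of HSBP1. MLYCD had its canonical TSS 11.5 kb from site 2, whereas 26 of the 28 sites had the cadherin itself as nearest gene. How often this holds for sites at genes of like length was not counted.

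**Figure D3:**
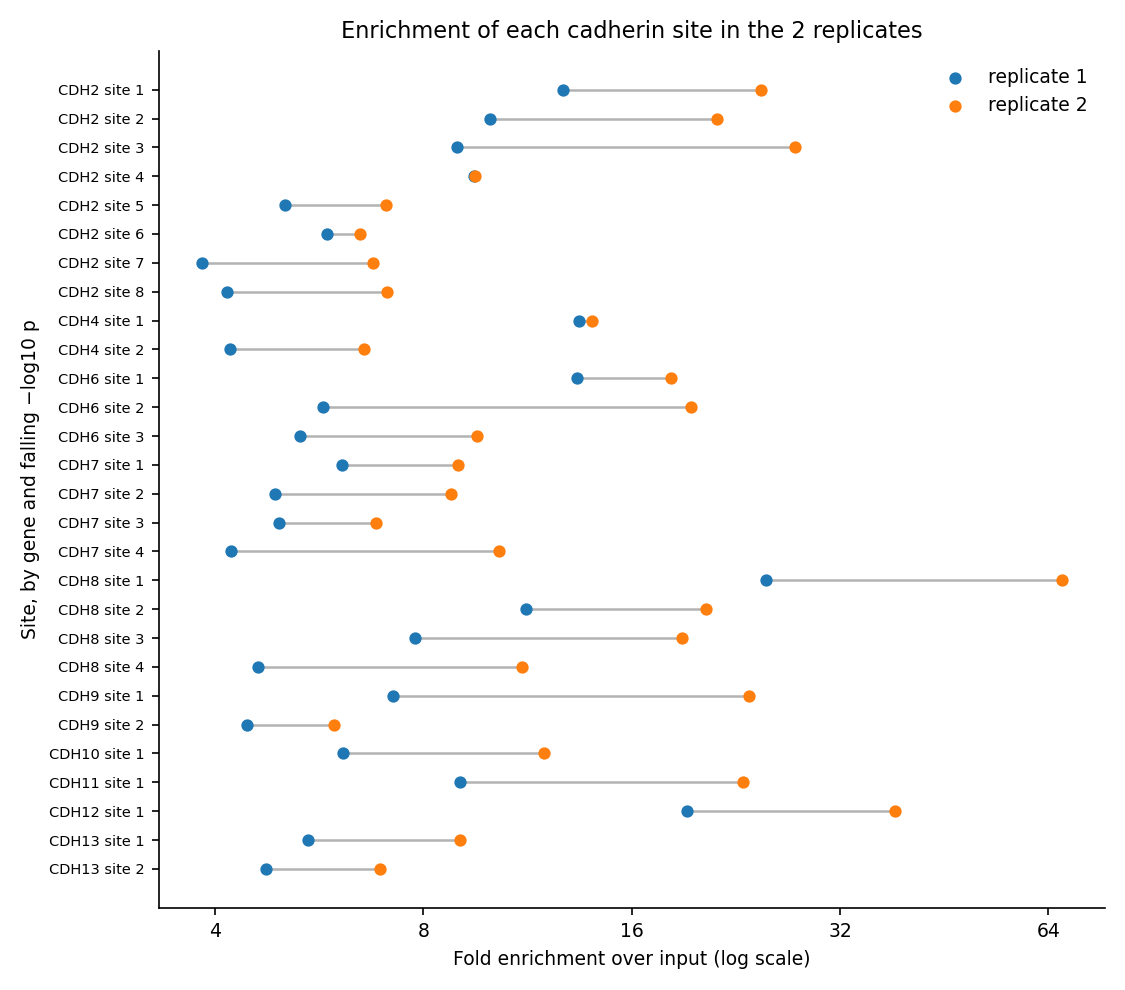
Fold enrichment over input of each cadherin site (log scale) in replicate 1 (blue) and replicate 2 (orange), ordered by gene and by falling −log10 p. The orange point lies to the right in all 28 sites. The points nearly coincide at site 4 of CDH2 (9.47 and 9.5) and lie farthest apart on this scale at site 2 of CDH6 (5.74 and 19.5).

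The fold enrichment was higher in replicate 2 at all 28 sites, which was also so for 97.4% of the whole list. The part of depth, batch and wash protocol in this was not tested. The ratio of replicate 2 to replicate 1 had a median of 1.8 at the cadherin sites and of 1.799 over all sites. On −log10 p, 20 of the 28 were higher in replicate 2, and 64.2% of all sites. The 8 sites that were higher in replicate 1 included the strongest site of CDH4 and that of CDH6. The replicate summits lay a median of 13 bp apart, and within 50 bp at 22 sites.

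**Figure D4:**
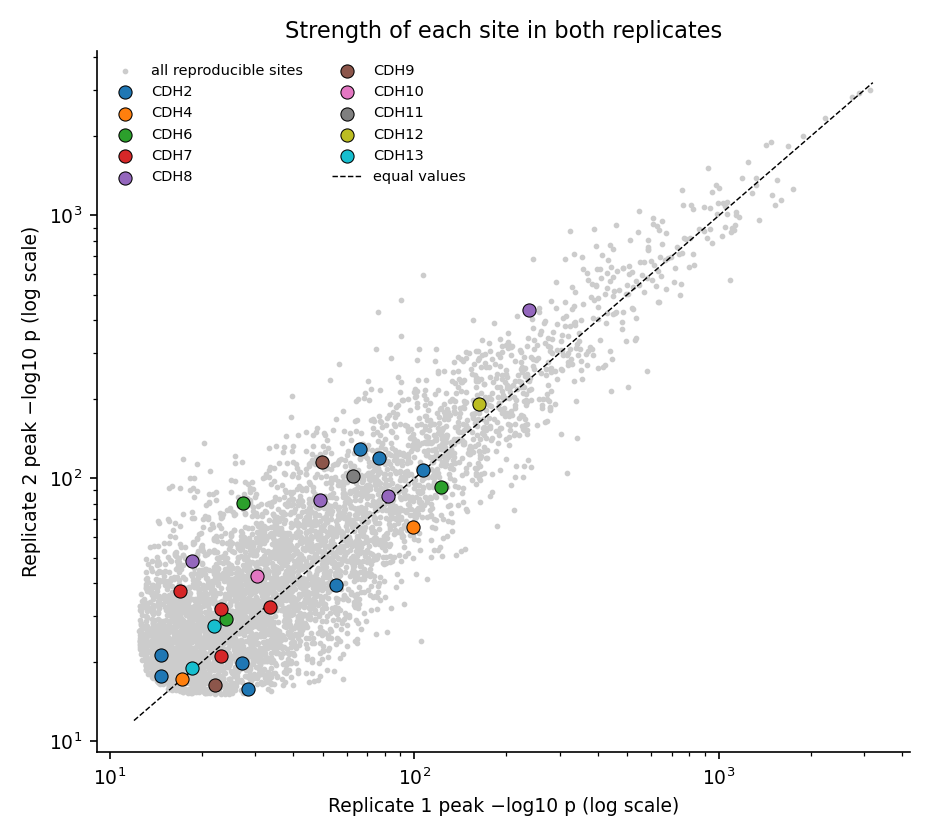
Peak −log10 p in replicate 1 (x axis) and replicate 2 (y axis), both on log scales, for the 28 cadherin sites (coloured by gene) and all 5169 sites (grey). The dashed line marks equal values. The cadherin sites spread through the grey cloud, with site 1 of CDH8 at 238 and 438 at their upper end.

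The median distance of the sites to the canonical TSS was 332 kb, and 23 of the 28 lay more than 100 kb away. For the genes of like length and the sites in their windows, the median was 214 kb, and 75.7% of these gene and site pairs were more than 100 kb apart. Within 5 kb of the canonical TSS were 2 sites, those of CDH2 and CDH10 described above, and within 5 kb of any annotated TSS of the gene were 4, the further ones being sites 2 and 8 of CDH2. For these 5 kb counts no share over all sites was taken, so they are not read as particular to the cadherins. Gene bodies held 10 sites (35.7%, Wilson 95% interval 20.7 to 54.2), the downstream flanks 14 (50%, 32.6 to 67.4) and the upstream flanks 4 (14.3%, 5.7 to 31.5). Per Mb, this was 2.24 in bodies, 5.6 downstream and 1.6 upstream. In the same windows around all protein-coding genes, 16.1% of the gene and site pairs were in bodies, 42.3% downstream and 41.6% upstream. Those genes were not matched in body length, and cadherin bodies made up 4.456 of 9.46 Mb of their windows. The shares in bodies and in both flanks are therefore not compared like for like. The upstream sites were those of CDH6 and CDH10 only. Of the 14 downstream sites, 11 belonged to CDH2, CDH7 and CDH8. Intervals cover the number of sites alone, and neighbouring sites are not independent.

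Within 10 kb of each other were 5 neighbouring pairs, 2 at CDH2 and 1 each at CDH4, CDH7 and CDH8, so that 10 of the 28 sites (35.7%) had such a neighbour. Over the whole list, 11.5% of sites had another within 10 kb. The 2 sites of a pair are not independent, so the cadherin share rests on 5 pairs.

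Peaks close to the canonical TSS were listed as well, including those outside the reproducible list. None of the 10 genes had a reproducible site within 1 kb of its canonical TSS, a count with no share over all genes to set beside it. Overlapping peaks of both replicates lay there at CDH6, at a −log10 p of 6.13 and 4.77, and at CDH12, at 11.2 and 3.91. At CDH6 a further pair of overlapping peaks lay 1.93 kb and 1.96 kb into the gene, with 11.8 and 27.4, and was not in the reproducible list. CDH10 had a peak within 1 kb in each replicate, but they did not overlap. The remaining 7 genes had no peak of either replicate within 1 kb. A peak of either replicate was thus there at 3 of the 10 cadherin genes (30%), and at 23.1% of protein-coding genes with a canonical TSS.

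The wider peak lists were then compared at these genes. Of the 129 replicate 1 peaks, 76 (58.9%, Wilson 95% interval 50.3 to 67.0) shared at least 1 bp with a peak of replicate 2, and 49.0% of all replicate 1 peaks did. Of the 182 replicate 2 peaks, 76 (41.8%, 34.8 to 49.0) overlapped one of replicate 1, beside 38.0% of all. The reproducible list took in 28 peaks of each replicate, 21.7% of those at the genes in replicate 1 and 15.4% in replicate 2, where 14.1% and 10.9% of all peaks were in it. Overlapping peaks outside the list numbered 48. By the lower of the replicate values, the strongest of these lay in CDH4, 396 kb from its TSS, at a −log10 p of 16.7 and 14.8. The next were 13.2 kb upstream of CDH7 (16.5 and 14.3) and 129 kb into CDH10 (17.9 and 14.3).

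Consensus sequences were counted in the 500 bp windows, on both strands. TGACAG was in 16 of the 28 cadherin sites (57.1%, 39.1 to 73.5) and in 58.3% of all sites. It was found at both sites of CDH4 and of CDH9, at 4 of 8 of CDH2 and at neither of CDH13. In windows of 100 bp it was in 7 cadherin sites (25%, 12.7 to 43.4) and in 39.0% of all sites (37.7 to 40.3). In the sites that held it, the nearest copy was centred a median of 68 bp from the summit, and 16 bp over all sites.

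The shorter TGACA was searched after the sequences had been read. It lay in the 100 bp around the summit in 20 cadherin sites (71.4%, 52.9 to 84.7) and in 69.7% of all sites. Of the 12 without TGACAG, 9 held it there (75%, 46.8 to 91.1), and 51.8% of all sites without TGACAG did. TGACA is contained in TGACAG, and so short a string is frequent in any sequence.

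**Figure D5:**
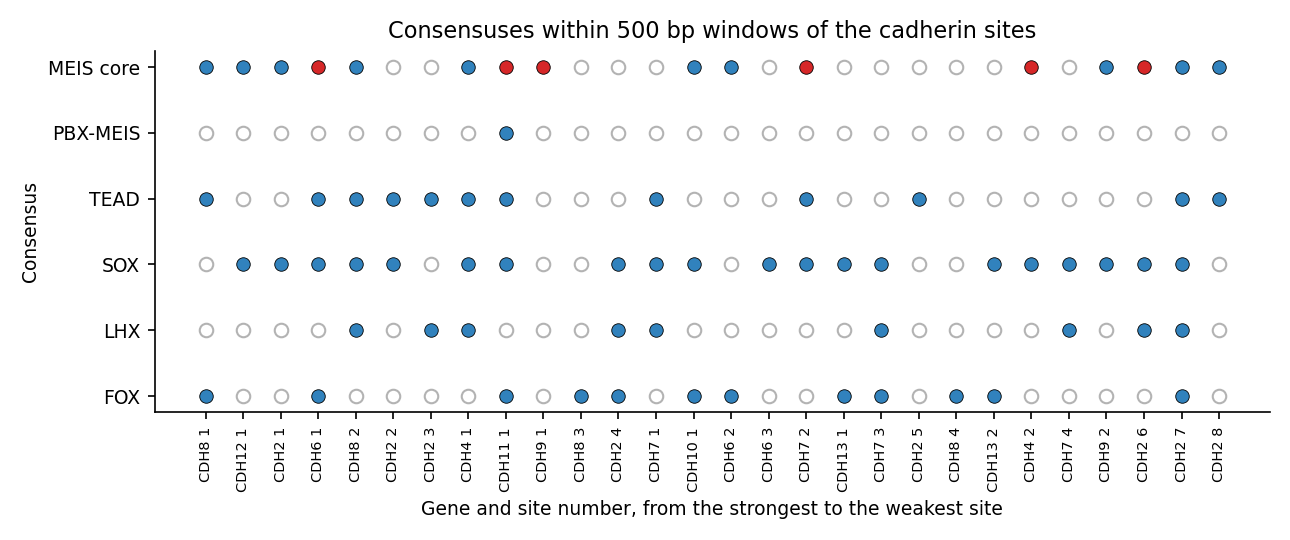
Presence of 6 consensuses (rows) in the 500 bp window of each cadherin site (columns, from the strongest to the weakest). Filled circles mark a match on either strand, open circles none, and red circles a MEIS core within 10 bp of the summit. The 6 red circles are spread over strong and weak sites, and the composite PBX-MEIS consensus is filled once, at CDH11.

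Further consensuses stand for factors that can bind beside MEIS. The TEAD core GGAATG was in 12 cadherin sites (42.9%, 26.5 to 60.9) and 38.2% of all sites. The SOX core, ACAAAG or ACAATG, was in 20 (71.4%, 52.9 to 84.7) and 71.0%. The LHX consensus TAATTA was in 9 (32.1%, 17.9 to 50.7) and 18.2%. The FOX core TAAACA was in 12 (42.9%, 26.5 to 60.9) and 34.4%. For each of these 4 the share of all sites lay within the interval of the cadherin share, for TAATTA just inside its lower bound. The GC content of the windows had a median of 41.1% at cadherin sites and 42% over all sites.

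Finally, 16 further genes of the family and of its cytoplasmic partners were counted in the same way. Of 9 other classical cadherins, 6 had a site, and their counts summed to 9. At least 1 site was found at 47.7% of all protein-coding genes. Among genes of like length the share ran from 40% for CDH24 to 83.5% for CDH18, so having a site is not read as particular to these cadherins. The windows of CDH1 and CDH3 overlap, and a site in both is counted at each gene. CDH20, a type II gene on chromosome 18, had 4, as many or more being found at 8% of the genes of like length. The other five with a site had 1 each, and CDH5 (VE-cadherin of the endothelium), CDH22 and CDH24 had none. Of the 7 catenin genes, 6 had a site and they held 14 in all. For these the share of genes of like length with a site ran from 46% for JUP to 84.5% for CTNNA2. CTNNA2, the neural alpha-catenin, had 4 and CTNNA3 had 3, which 38% and 56% of the genes of like length reached. CTNND1, which encodes p120-catenin, had none. The genes without a site are named after their counts were seen.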

How the data were processed

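MEIS ChIP-seq was made by the authors in untreated hNSC, with 2 MEIS ChIP and 2 Input samples grouped by title. Per the labels, 36 bp paired reads were trimmed (cutadapt 1.16), mapped to GRCh37 (hg19; bowtie2 2.3.0), filtered at a mapping quality of 30 (samtools 1.2) and freed of duplicates (Picard 2.15.0). For every replicate the authors ran MACS2 against input at a p-value of 0.01 (its version is not given in the sources used here), and IDR 2.0.3 gave the reproducible sites, with an IDR of at most 0.01. Reads from near-identical repeats are lost by the quality filter, so sites in them can be missed. The deposited peak lists hold fold enrichment over input (a ratio), −log10 p and −log10 q, and the deposited site list holds a scaled IDR score, the −log10 of the IDR and the −log10 p of the merged site, which at all 28 cadherin sites was the lower of the replicate values. Its 8 columns of per-replicate values were not used, and replicate values came from the strongest overlapping peak of each replicate list. Depth is unknown.

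Genes, TSS and canonical transcripts came from GENCODE 44 on GRCh37, and no peak lay beyond a chromosome end. Each cadherin was set beside the 200 protein-coding genes closest to it in body length, as a description. A percentile counts ties at their midpoint. No test was run, since there is no second group with values. Shares have Wilson 95% intervals, which cover counting error only. All sites at the 10 genes were taken, with the strongest of each gene, the 10 strongest of all and those within 5 kb of a TSS or in exons in full, and further cadherin and catenin genes were named from 3 sites up. Members and lists were chosen with earlier results of these data known. The code (Python 3.11.15, pandas 2.3.3, scipy 1.17.1, pysam 0.24.0) was tested on simulated data. Alternatives changed the added distance, the strictness of the list, the gene body, the replicates, the overlap, the window and the number of comparison genes.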

Additional observations from a re-analysis of the deposited data

How the results depend on the processing

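No paired analysis was possible because only the MEIS ChIP samples carry peak values. Leaving out CDH2, the search for TGACA, and the percentiles from a single replicate were chosen after seeing the data. Of the 46 alternative values of the main results, 31 moved by less than 1.5 times, or stayed in the interval or spread of the main value. The 28 sites became 10 with gene bodies alone, 15 with 100 kb added, 45 with 500 kb added and 15 at an IDR of 0.001 or less. Genes with a site fell from 10 to 6 with gene bodies alone. Sites per Mb were 1.59 at the stricter IDR, where all sites had 1.03, and the share of sites inside bodies was 66.7% with 100 kb added. The share with TGACAG was 25% in windows of 100 bp. Overlap of peaks was 41.9% for replicate 1 and 29.7% for replicate 2 with summits within 100 bp, and among peaks of −log10 p 5 or more it was 84.2% and 59.3%. The median −log10 p was 65.6 at the stricter IDR and 29.4 to 41.1 without one replicate. Without one replicate there were 28 to 30 sites and 2.96 to 3.17 per Mb, and 50% to 53.6% held TGACAG. The further cadherin and catenin genes had 14 sites, counted gene by gene, at the stricter IDR in place of 23. Of 70 site counts of single genes 25 moved by over 1.5 times, as did 39 of 70 percentiles by more than the spread between replicates. Part of these changes follows from the construction, since a shorter window or stricter list holds fewer sites, and for the rest the cause was not tested. The unknown depth limits comparison of the replicates.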
